A study of Mus musculus with 9 samples.

Results

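The integrins and the proteins that tie them to actin were followed in GL261 glioblastoma grown in mice and in culture. The genes were chosen by symbol: every integrin alpha chain and integrin beta chain in the deposited table, with 17 named proteins of focal adhesions. This gave 43 of the 20778 symbols, made up of 18 alpha chains, 8 beta chains and the 17 focal adhesion proteins.

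RNA of 9 libraries was sequenced in bulk, 3 in each of 3 groups. The tumour group came from brains of male C57BL/6 mice, 7 weeks old at injection and immunocompetent, resected 14 days after 50000 mCherry-labelled GL261 cells were injected into the striatum under ketamine and xylazine. GL261 is a transplantable mouse glioma line of the same strain. Both other groups held a penta-culture, in which mCherry-labelled GL261 cells (1000000 per ml) grew beside primary astrocytes, microglia, endothelial cells and pericytes from brains of male C57BL/6 mice 6 to 10 weeks old. One group grew on a plastic dish (2D culture) and the other inside a fibrin gel (3D bioink). Magnetic beads carrying antibodies to CD31, to AN2 with CD144, and to CD11b had captured the endothelial cells, pericytes and microglia in turn, and the unbound remainder served as astrocytes. CD11b is the product of Itgam, an integrin of the present set. The 3D bioink was digested with collagenase II (600 U per ml, 3 h) and passed through a 70 µm mesh before RNA extraction, a step the protocol gives for no other group, so gel and digestion cannot be told apart. The protocol names 5 implanted mice, but the labels do not tie a tumour library to a mouse or a culture library to a separate culture, so a p-value here reflects how far libraries of a group differ, which could be technical variation alone.

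Integrins are surface receptors made of an alpha and a beta chain, and the pairing sets what the receptor binds: fibronectin and vitronectin through the peptide RGD, collagen, laminin, or counter-receptors on other cells. Talin and kindlin bind the cytoplasmic tail of the beta chain and switch the receptor on. ILK, PINCH and parvin form a complex on that tail, focal adhesion kinase and paxillin signal from it, and vinculin, zyxin, alpha-actinin and tensin link it to actin. In gliomas, integrins have been studied chiefly for invasion along vessels and white matter, and the beta 2 integrins mark the myeloid cells that enter the tumour.

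Because the largest differences lay in a group of myeloid integrin genes, the upstream sequences of 2 of them are shown beside that of a broadly expressed alpha chain. Each is the 250 bases before the RefSeq transcription start on the plus strand of GRCm38.p6, 5′ to 3′. They lie at chr7:128062390-128062639 for Itgam, chr7:128129300-128129549 for Itgax and chr2:83724147-83724396 for Itgav. Capitals mark the letters GAGGAA or, for the other strand, TTCCTC. They hold the shorter core GGAA bound by ETS factors such as PU.1, the myeloid regulator encoded by Spi1. GGAA alone is not marked.
Itgam: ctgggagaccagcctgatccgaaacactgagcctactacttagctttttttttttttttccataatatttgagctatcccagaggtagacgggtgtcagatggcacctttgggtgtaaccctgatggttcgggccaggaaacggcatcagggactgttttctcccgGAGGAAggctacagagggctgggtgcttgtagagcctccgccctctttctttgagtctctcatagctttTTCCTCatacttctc
Itgax: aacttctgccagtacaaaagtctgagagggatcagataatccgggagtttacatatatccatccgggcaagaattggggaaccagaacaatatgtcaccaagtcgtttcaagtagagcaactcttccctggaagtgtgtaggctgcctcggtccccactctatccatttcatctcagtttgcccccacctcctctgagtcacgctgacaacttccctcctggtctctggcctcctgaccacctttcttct
Itgav: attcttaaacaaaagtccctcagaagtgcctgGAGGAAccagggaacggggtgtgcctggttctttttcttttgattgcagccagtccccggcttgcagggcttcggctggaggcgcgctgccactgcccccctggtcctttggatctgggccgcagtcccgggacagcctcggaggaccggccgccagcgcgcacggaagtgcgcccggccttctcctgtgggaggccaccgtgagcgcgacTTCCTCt
The letters GAGGAA or TTCCTC stand 84 and 15 bases before the start of Itgam and 218 and 7 bases before that of Itgav. The window of Itgax does not hold them, though it holds the shorter GGAA. Of all 32851 RefSeq windows of this length, 23.25% hold the letters at least once on either strand, and 3.54% hold them 2 or more times. RefSeq gave 37 windows for 31 of the 43 genes, and 10 of the 37 held the letters. A match of letters is a description of the sequence and not a binding site.

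The values below are normalized counts that the authors rounded to whole numbers. They summed to 16320090 or more in each tumour library, to at most 15711632 on the dish and to at most 13683978 in the gel, totals set by the normalization, and the read depth is unknown. Fold changes are on the log2(value + 1) scale, which understates the change of low genes, and a gene was called higher or lower when its adjusted p from limma was under 0.05. Array weights, limma's estimate of how well each library follows its group, put bioink replicate 1 lowest, at 0.236 against 0.688 to 4.96 for the others. The 3 other scalings tried were quantile normalization, equal library sums and median ratios to a reference library. Equal sums moved the median log2 difference of all genes from -0.12 to 0.14 for 3D bioink against tumours and from -0.02 to 0.17 for 3D bioink against 2D culture. Quantile normalization moved it from -0.12 to 0.04 and from 0.01 to 0.18 for the comparisons of 3D bioink and 2D culture with tumours. With equal sums the split of all genes went from 3737 higher and 5132 lower to 4886 and 3825 for 3D bioink against tumours, and from 3713 and 4435 to 4710 and 3437 for 3D bioink against 2D culture.

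Of the 43 genes, 41 averaged 10 or more across the 9 libraries and were tested, against 13773 genes in all. The other 2 were the leukocyte alpha chain Itgad and the actin linker Tns1, which was listed at 0 in all 9 libraries. In 3D bioink against tumours, 17 of the 41 were higher and 15 lower (41.5% and 36.6%), where 27.1% and 37.3% of all genes were. In 2D culture against tumours, 16 were higher and 14 lower (39% and 34.1%), beside 27.3% and 27% of all genes. In 3D bioink against 2D culture, 12 were higher and 13 lower (29.3% and 31.7%), shares near the 27% and 32.2% of all genes. In this last comparison the split was 16 higher and 9 lower with equal sums and 14 and 10 with median ratios. The median log2 fold change of the 41 genes was 0.28, 0.28 and -0.07 in these comparisons, beside -0.12, 0.01 and -0.02 over all genes. Both comparisons with tumours use the same 3 tumour libraries. Without bioink replicate 1 there were 20 higher and 15 lower in 3D bioink against tumours, and 14 and 13 against 2D culture.

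**Figure D1:**
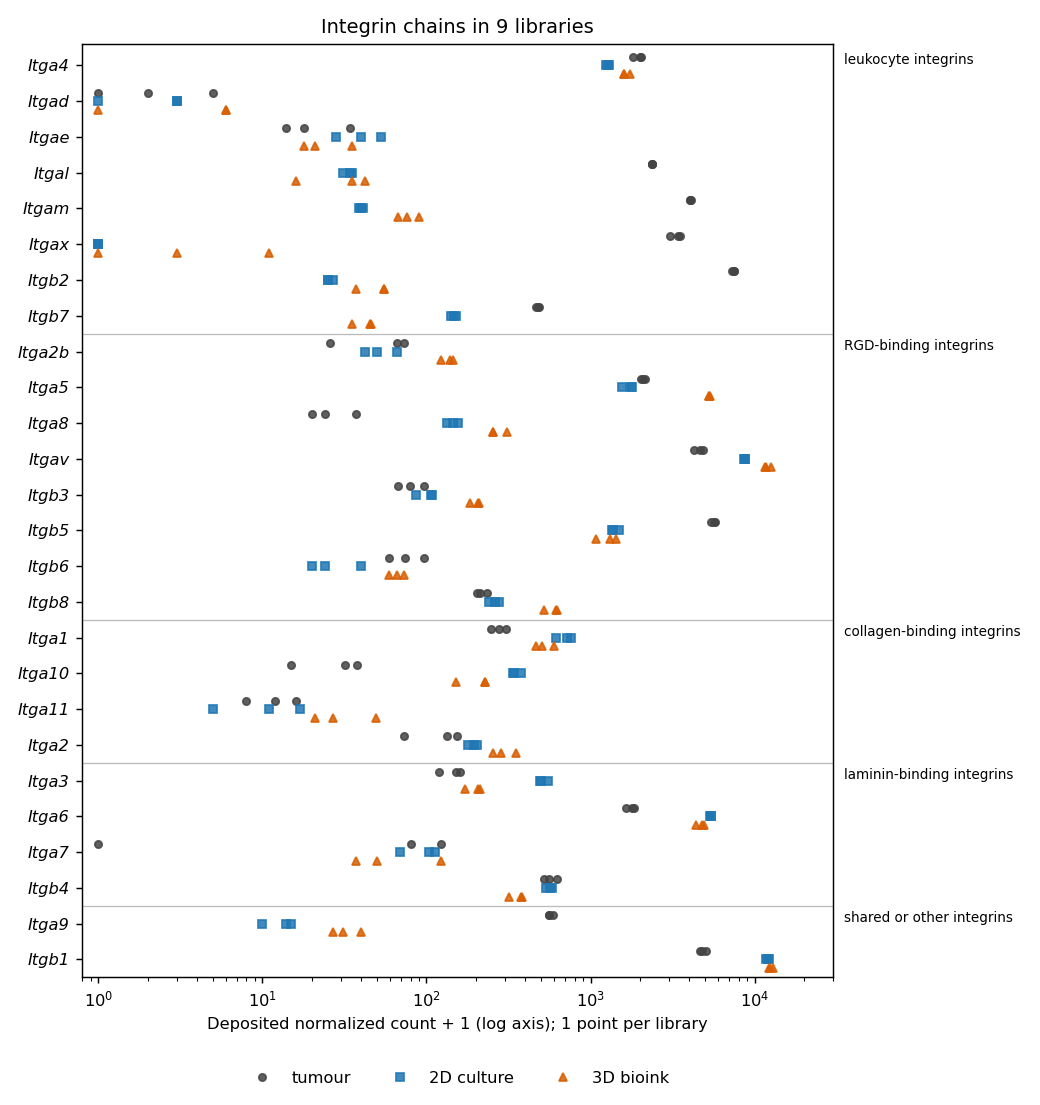
Normalized count plus 1 (log axis) of the 26 integrin chains in each library, grouped by what they bind; each point is 1 library. Itgal, Itgam, Itgax and Itgb2 lay between 2373 and 7510 in the tumours and at 89 or less in the 6 culture libraries, while Itgav, Itga6 and Itgb1 were higher in both cultures.

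Most leukocyte integrins were far lower in both cultures than in the tumours: Itgal, Itgam, Itgax, Itgb2 and, by less, Itgb7. Of the 7 tested, 6 were lower and none was higher in each comparison with tumours (median log2 fold change -5.72 for 3D bioink and -6.16 for 2D culture). Of all genes, 37.3% were lower in 3D bioink and 27% in 2D culture. Itgae, the alpha chain of an integrin of tissue lymphocytes, did not pass on the deposited scale (log2 0.93 for 2D culture, adjusted p = 0.1177). It was called higher in 2D culture than in tumours with quantile normalization (adjusted p = 0.0248) and without tumour replicate 1 (log2 1.30, adjusted p = 0.04181), and lower in 3D bioink than in 2D culture with quantile normalization (log2 -1.52, adjusted p = 0.02389). In bulk libraries fewer cells of a type and less RNA per cell cannot be told apart. Itgb2, the beta chain shared by this family (chromosome 10, 77530252 to 77565708 in GRCm38), stood at 7234, 7497 and 7510 in the tumours. It stood at 24, 26 and 24 in 2D culture and at 54, 54 and 36 in the bioink. No library of a culture came near a tumour library. The means were 7414 ± 156, 24.7 ± 1.15 and 48 ± 10.4 (SD, n = 3 each). Itgb2 was 154.5-fold lower in 3D bioink than in tumours (log2 -7.27, SE 0.17, adjusted p = 1.361e-09) and 300.6-fold lower in 2D culture (log2 -8.18, adjusted p = 3.783e-10).

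Itgam pairs with Itgb2 to form the complement receptor Mac-1. Its values were 4104, 4040 and 4031 in tumours, 39, 40 and 38 in 2D culture, and 75, 89 and 66 in the bioink. It was thus 52.9-fold lower in 3D bioink (log2 -5.72, SE 0.13, adjusted p = 1.382e-09) and 104-fold lower in 2D culture (log2 -6.67, adjusted p = 3.259e-10). Cells caught with CD11b beads had supplied the microglia of both cultures. Itgal, the alpha chain of LFA-1, an integrin by which leukocytes hold on to other cells, read 2385, 2376 and 2373 in tumours, 33, 34 and 30 in 2D culture, and 15, 34 and 41 in the bioink. Its log2 fold changes against tumours were -6.38 (SE 0.31, adjusted p = 1.291e-07) and -6.16 (adjusted p = 1.472e-07) for 3D bioink and 2D culture. Itgax, the CD11c chain of dendritic cells and activated microglia, was at 3395, 3531 and 3044 in tumours. It was listed at 0 in the 3 libraries of 2D culture and at 0, 10 and 2 in 3D bioink, so its fitted log2 changes (-10.02 for 3D bioink, adjusted p = 1.559e-06) depend on the 1 added before taking logs. Itgax was tested only because of its tumour values, so it could only be called lower against them.

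Itgam (chromosome 7, 128062640 to 128118491), Itgax (128129547 to 128150657) and Itgad (128154376 to 128223816) lie side by side within 161.2 kb on chromosome 7, and Itgal ends 727.5 kb before Itgam. Their levels were unlike. In the tumours Itgam and Itgax stood at 3044 or more, while Itgad, whose product CD11d also pairs with Itgb2, was listed at 4, 0 and 1 (0.37 ± 0.46 per kb of exon). Itgad was at 5 or less in all 9 libraries and was not tested. Per kb of exon, the tumour level of Itgam was 808 ± 7.92, that of Itgax 692 ± 52.3 and that of Itgal 362 ± 0.95 (n = 3), with no overlap between the 3 genes.

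Both remaining leukocyte chains differed less. Itgb7, which pairs with Itga4 or Itgae in lymphocytes that home to mucosa, stood at 483, 479 and 466 in tumours, 150, 141 and 146 in 2D culture, and 45, 34 and 44 in the bioink. The 3 groups did not overlap, and Itgb7 was the leukocyte chain that was lower in 3D bioink than in 2D culture (log2 -1.81, SE 0.16, adjusted p = 7.999e-06). Itga4, the alpha chain of VLA-4, which binds Vcam1 and fibronectin and is also made by cells outside the blood, was at 2020, 1812 and 2007 in tumours, 1250, 1298 and 1268 in 2D culture, and 1745, 1589 and 1605 in the bioink. It was 1.53-fold lower in 2D culture than in tumours (log2 -0.61, SE 0.06, adjusted p = 2.352e-05). Its lower call in 3D bioink (log2 -0.24, adjusted p = 0.007957) was lost with quantile normalization (-0.07) and median ratios (-0.15), and the sign turned with equal sums (0.02).

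Between the cultures, 3 of the 7 tested leukocyte chains were higher in 3D bioink, at levels far under those of the tumours. Of all genes, 27% were higher and 32.2% lower in this comparison. Itgam was 1.97-fold higher (log2 0.95, SE 0.13, adjusted p = 0.0001901), Itgb2 1.95-fold (log2 0.91, SE 0.17, adjusted p = 0.001142) and Itga4 1.29-fold (log2 0.37, SE 0.06, adjusted p = 0.0007069). With quantile normalization the split turned to 2 higher and 3 lower: the Itgb2 call was lost (0.21, adjusted p = 0.36), and Itgal joined Itgae and Itgb7 as lower in 3D bioink (log2 -0.88, adjusted p = 0.0302). Itgax did not pass (log2 1.68, SE 0.72, adjusted p = 0.07033), but did without bioink replicate 1, the bioink library listed at 0 for it (log2 2.52, adjusted p = 0.002698).

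Genes that mark blood-borne and brain-resident myeloid cells moved with these integrins. The summed level of Itgal, Itgam, Itgax and Itgb2 was 16958 to 17444 in tumours, 92 to 100 in 2D culture and 144 to 187 in 3D bioink. The 12 general leukocyte markers summed to 20923 to 21659, 111 to 147 and 329 to 356 in the same order, all 12 were lower in both cultures, and Tyrobp was listed at 0 in the 6 culture libraries. Of all genes, 37.3% were lower in 3D bioink and 27% in 2D culture. Ptprc, Tyrobp, Fcer1g, Cd52, Was and Spi1 averaged under 10 in each culture. They were tested only because of their tumour values, so they could only be called lower. The same held for Fcrls, Cx3cr1, Ly6c2 and Adgre1, among others, in the lists that follow. The 10 microglia markers summed to 19798 to 20637, 915 to 1016 and 1541 to 1627, with 9 of 10 lower in each culture and Fcrls listed at 0 in 3D bioink. Cx3cr1, a receptor found on microglia, was at 18 or less and Sall1 at 19 or less in the 6 culture libraries. In the same libraries Tmem119 stood at 69 to 140 and Olfml3 at 232 to 435. The 10 macrophage and monocyte markers summed to 28904 to 29671, 152 to 179 and 418 to 546, with 9 lower in 3D bioink and 10 in 2D culture; Ly6c2 was listed at 0 in both cultures, and Adgre1 and F13a1 in 2D culture. The 9 T and NK cell markers in the table summed to 587 to 679, 80 to 97 and 196 to 255. Most of each culture sum was Cd3d, at 111 ± 20.4 in tumours, 70 ± 9.17 in 2D culture and 146 ± 33.3 in 3D bioink. Of the 7 tested, 7 were lower in 2D culture, 4 were lower in 3D bioink, and none was higher. The part of these cells in the integrin differences was not tested.

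**Figure D2:**
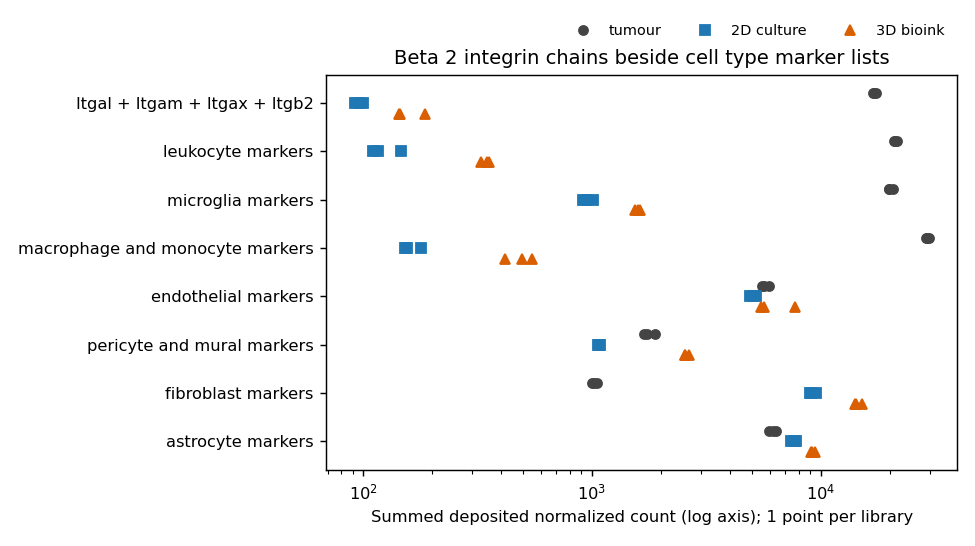
Summed normalized count (log axis) of the 4 chains Itgal, Itgam, Itgax and Itgb2 and of 7 marker lists in each library; each point is 1 library. The 4 chains and the leukocyte, microglia and macrophage lists were lower in the 6 culture libraries than in any tumour. The sum of the fibroblast list, most of it Col1a1 and Col1a2, was higher (998 to 1054 in tumours, 9024 or more in culture).

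The integrins that bind RGD moved differently. Of the 8, 6 were higher and 1 was lower in 3D bioink than in tumours, and 7 were higher and none lower in 3D bioink than in 2D culture (median log2 fold changes 1.36 and 1.08). Of all genes, 27.1% were higher and 37.3% lower in the first of these comparisons, and 27% and 32.2% in the second. In 2D culture against tumours, 2 of the 8 were higher and 3 lower, beside 27.3% and 27% of all genes. With quantile normalization 4 were higher and 2 lower, and with equal sums 3 and 3. Itga5, the alpha chain of the main fibronectin receptor (chromosome 15, 103344286 to 103366763), was at 2142, 2041 and 2095 in tumours, 1796, 1553 and 1755 in 2D culture, and 5296, 5262 and 5364 in the bioink. The bioink libraries lay far above the rest and the dish libraries just under the tumours. Itga5 was 2.54-fold higher in 3D bioink than in tumours (log2 1.34, SE 0.06, adjusted p = 7.268e-08) and 3.12-fold higher than in 2D culture (log2 1.64, SE 0.06, adjusted p = 3.621e-08). It was lower in 2D culture than in tumours (log2 -0.30, SE 0.06, adjusted p = 0.001986).

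Itgav, the alpha chain shared by the vitronectin receptors (chromosome 2, 83724397 to 83806916), rose stepwise from 4823, 4677 and 4293 in tumours to 8701, 8676 and 8559 in 2D culture and 12519, 11492 and 11771 in the bioink. The 3 groups did not overlap. It was 2.59-fold higher in 3D bioink than in tumours (log2 1.38, SE 0.06, adjusted p = 3.398e-08) and 1.38-fold higher than in 2D culture (log2 0.46, adjusted p = 5.436e-05). Itga8, a partner of Itgb1 that binds nephronectin and is found on mesenchymal cells, had the same order of groups. Its values were 36, 19 and 23 in tumours, 155, 144 and 132 in 2D culture, and 254, 310 and 252 in the bioink, 10.5-fold above tumours (log2 3.38, SE 0.25, adjusted p = 1.8e-06).

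The beta partners of Itgav separated. Itgb5 stood at 5399, 5737 and 5671 in tumours, 1355, 1379 and 1495 in 2D culture, and 1084, 1419 and 1320 in the bioink. It was 4.4-fold lower in 3D bioink than in tumours (log2 -2.14, SE 0.09, adjusted p = 5.65e-08) and 3.97-fold lower in 2D culture (log2 -1.99, adjusted p = 7.71e-08), and the cultures overlapped. Itgb8, a beta chain that with Itgav binds latent TGF-beta, read 202, 233 and 212, then 276, 262 and 241, then 517, 616 and 621 in tumours, 2D culture and 3D bioink. It was higher in 3D bioink than in tumours (2.71-fold, log2 1.43, SE 0.12, adjusted p = 3.924e-06) and than in 2D culture (2.25-fold, log2 1.17, adjusted p = 1.99e-05). In 2D culture against tumours it did not pass (log2 0.27, adjusted p = 0.08347) but did with quantile normalization (0.47), equal sums (0.33) and array weights (0.27). The myeloid markers given above were likewise highest in the tumours, and the part of those cells in the Itgb5 difference was not tested.

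Itgb3, the chain that pairs with Itgav in the vitronectin receptor and with Itga2b on platelets, was at 78, 66 and 96 in tumours, 106, 107 and 85 in 2D culture, and 182, 205 and 207 in the bioink. It was 2.48-fold higher in 3D bioink than in tumours (log2 1.31, SE 0.20, adjusted p = 0.0002626) and 1.99-fold higher than in 2D culture (log2 0.99, adjusted p = 0.001827). Tumours and 2D culture overlapped, and Itgb3 was called higher in 2D culture with quantile normalization alone of the settings tried (0.72, adjusted p = 0.01179). Itga2b was at 25, 65 and 72, at 65, 49 and 41, and at 138, 145 and 121 in the same order, higher in 3D bioink than in tumours (log2 1.44, SE 0.39, adjusted p = 0.008684) and than in 2D culture (log2 1.39, adjusted p = 0.01144). Of 8 platelet markers, Gp1ba was higher in 3D bioink than in tumours and Pf4, a chemokine of platelets, was listed at 0 in the 6 culture libraries. Their sum was 267 to 338 in tumours, 87 to 112 in 2D culture and 209 to 286 in 3D bioink, and their part was not tested.

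Itgb6, the epithelial partner of Itgav, was at 58, 73 and 96 in tumours, 23, 39 and 19 in 2D culture, and 58, 72 and 65 in the bioink. The dish libraries lay under all others, and 3D bioink overlapped the tumours. It was lower in 2D culture than in tumours (log2 -1.49, SE 0.33, adjusted p = 0.003663) and higher in 3D bioink than in 2D culture (log2 1.30, adjusted p = 0.007253), and both calls were lost with quantile normalization (-0.83 and 0.68). The other 6 higher calls of 3D bioink against 2D culture in this group held under the 3 other scalings tried. Between the cultures, the 7 fibroblast markers tested were all higher in 3D bioink (median log2 fold change 1.33), as were these 7 chains. Of 10 pericyte markers, 7 were tested, 3 (Des, Rgs5 and Cspg4) were higher and Acta2 was lower in 3D bioink. Their sum, most of it Cspg4 in each culture library, was 2546 to 2656 in 3D bioink, 1064 to 1088 in 2D culture and 1697 to 1886 in tumours. The 10 endothelial markers summed to 5462 to 7751, 4889 to 5226 and 5559 to 5951 in the same order. Most of each sum was Pecam1, at 5407, 3162 and 3030 in the bioink. The other endothelial markers went both ways. In 3D bioink against 2D culture Flt1, Tie1 and Cldn5 were higher and Egfl7 lower. Against tumours Flt1 and Cdh5 were higher and Egfl7, Cldn5 and Kdr lower in 3D bioink. Of the 10 astrocyte markers, 5 were higher and none lower in 3D bioink against 2D culture, beside 27% and 32.2% of all genes. They summed to 9114 to 9397 in 3D bioink, 7426 to 7832 in 2D culture and 5938 to 6384 in tumours. The part of any of these cells in the differences was not tested.

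The collagen receptors, alpha chains that pair with Itgb1, were higher in culture. Of the 4, 3 passed as higher and none as lower in both comparisons with tumours. Of all genes, 27.1% were higher in 3D bioink and 27.3% in 2D culture. Itga10, known from cartilage, was at 37, 31 and 14 in tumours, 378, 338 and 340 in 2D culture, and 150, 225 and 228 in the bioink. That is 7.35-fold above tumours in 3D bioink (log2 2.91, SE 0.33, adjusted p = 3.669e-05) and 12.9-fold in 2D culture (log2 3.74, adjusted p = 7.379e-06). Itga1 stood at 306, 274 and 247, at 717, 758 and 612, and at 599, 462 and 507 in tumours, 2D culture and 3D bioink, with log2 fold changes against tumours of 0.92 for 3D bioink (SE 0.13, adjusted p = 0.0001795) and 1.33 for 2D culture (adjusted p = 1.598e-05). The groups of both genes did not overlap, but the Itga10 difference between the cultures did not pass (log2 -0.83, SE 0.33, adjusted p = 0.05545). It did, as lower in 3D bioink, with 8 added before taking logs (-0.81), with array weights (-0.65) and with only these 2 groups fitted (-0.83).

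Itga2 was at 133, 152 and 72 in tumours, 195, 178 and 201 in 2D culture, and 252, 282 and 349 in the bioink. Its higher call in 3D bioink against tumours was clear of the spread (log2 1.36, SE 0.26, adjusted p = 0.001272). The call in 2D culture (log2 0.75, adjusted p = 0.03531) was lost without tumour replicate 3 (0.42) and without 2D replicate 1, 2 or 3 in turn (0.73, 0.80 and 0.71). Between the cultures Itga2 did not pass (log2 0.61, adjusted p = 0.07138). It did, as higher in 3D bioink, with equal sums (0.80), median ratios (0.69), array weights (0.82) and only these 2 groups fitted (0.61). Itga11, a collagen receptor of fibroblasts, lay between 4 and 48 in the 9 libraries.

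Between the cultures, Itga11 was higher in 3D bioink (20, 48 and 26) than in 2D culture (16, 4 and 10), a log2 difference of 1.63 (SE 0.58, adjusted p = 0.03479). The call was lost without 2D replicates 2 or 3 (1.15 and 1.72) or bioink replicates 2 or 3 (1.28 and 1.71), with quantile normalization (0.75) and with the replicate number as a block (adjusted p = 0.05817). Itga1 was lower in 3D bioink than in 2D culture (log2 -0.41, SE 0.13, adjusted p = 0.02141). That call was lost under the 3 other scalings (-0.28, -0.22 and -0.33) and without 2D replicates 1 or 2 (-0.39 and -0.35) or bioink replicates 2 or 3 (-0.33 and -0.40). The 8 fibroblast markers, which include the collagen genes Col1a1 and Col1a2, summed to 998 to 1054 in tumours, 9024 to 9568 in 2D culture and 14056 to 15124 in 3D bioink. Most of each sum came from these 2 collagen genes. Of the 7 tested, 6 were higher in 3D bioink and 4 in 2D culture than in tumours. Fap was lower in 2D culture (28.3 in tumours, 7.33 in 2D culture). Dcn and Lum averaged 2.33 and 1 in 2D culture, beside 4 and 5.67 in tumours. The part of fibroblasts in the collagen receptor differences was not tested.

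Among the laminin receptors, Itga6 and Itga3 were higher in both cultures than in tumours. Itga6, a chain found on glioma stem-like cells, endothelium and basal epithelium (chromosome 2, 71745616 to 71858416), was at 1634, 1838 and 1793 in tumours. It stood at 5458, 5402 and 5342 in 2D culture and 4392, 4764 and 4893 in the bioink, without overlap. It was 2.67-fold higher in 3D bioink (log2 1.42, SE 0.06, adjusted p = 5.103e-08) and 3.08-fold higher in 2D culture (log2 1.62, adjusted p = 1.674e-08). The lower call of 3D bioink against 2D culture (log2 -0.21, adjusted p = 0.01379) was lost with equal sums (-0.01) and median ratios (-0.12), and its sign turned with quantile normalization (0.08).

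Itga3 was at 159, 150 and 119 in tumours, 499, 488 and 553 in 2D culture, and 171, 204 and 211 in the bioink. The dish libraries stood far above the rest, 3.6-fold above tumours (log2 1.85, SE 0.15, adjusted p = 3.821e-06), and 3D bioink was 2.63-fold under 2D culture (log2 -1.39, SE 0.15, adjusted p = 2.959e-05). The small rise in 3D bioink against tumours (log2 0.46, adjusted p = 0.02285) was lost without tumour replicate 3 (0.33) or bioink replicates 2 or 3 (0.42 and 0.40). Itgb4, the hemidesmosome chain that pairs with Itga6, read 625, 521 and 561, then 568, 533 and 580, then 318, 381 and 378. It was 1.59-fold lower in 3D bioink than in tumours (log2 -0.66, SE 0.11, adjusted p = 0.0003677) and 1.56-fold lower than in 2D culture (log2 -0.65, adjusted p = 0.0005286). Itga7, a laminin receptor of muscle, was at 0, 79 and 122 in tumours, 36 to 121 in the cultures, and passed in no comparison.

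Itgb1, the beta chain that pairs with the collagen and laminin alpha chains and with Itga5 (chromosome 8, 128685654 to 128733200), was at 5081, 4665 and 4768 in tumours, 12083, 12291 and 11799 in 2D culture, and 12343, 12269 and 12886 in the bioink. Both cultures stood above the tumours and overlapped each other. It was 2.58-fold higher in 3D bioink (log2 1.37, SE 0.05, adjusted p = 1.358e-08) and 2.49-fold higher in 2D culture (log2 1.32, SE 0.05, adjusted p = 1.305e-08). The difference between the cultures did not pass (log2 0.05, 95% interval -0.05 to 0.16, adjusted p = 0.3707) but did, as higher in 3D bioink, with quantile normalization (0.46), equal sums (0.25), median ratios (0.13) and array weights (0.08). Itga9, a partner of Itgb1 that binds tenascin and Vcam1 and occurs on neutrophils and lymphatic endothelium, went the other way. It stood at 555, 591 and 555 in tumours, 9, 13 and 14 in 2D culture, and 26, 39 and 30 in the bioink, 17.9-fold lower in 3D bioink (log2 -4.14, SE 0.26, adjusted p = 6.475e-07) and 47.3-fold lower in 2D culture (log2 -5.47, adjusted p = 9.551e-08). Itga9 was higher in 3D bioink than in 2D culture (log2 1.33, adjusted p = 0.001624), a call lost with quantile normalization (0.53). The 6 neutrophil markers summed to 792 to 927 in tumours, 23 to 49 in 2D culture and 82 to 120 in 3D bioink. Most of the tumour sum was Csf3r (783 ± 74.0), and S100a8, S100a9 and Retnlg were at 5 or less in each library. Of the 2 markers tested, Csf3r was lower in both cultures, but it was tested only because of its tumour values. Cxcr2 was called in neither comparison with tumours (51.3 in tumours, 27.3 in 2D culture and 78.7 in 3D bioink). The part of neutrophils was not tested.

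The beta chains can be set beside each other as levels per kb of exon. In tumours Itgb2 made up 44.3% ± 0.58, Itgb5 28.7% ± 0.71 and Itgb1 21.6% ± 1.13 of the summed beta chain level (SD, n = 3). In 2D culture Itgb1 made up 83.6% ± 0.71 and Itgb5 11.2% ± 0.71, and in 3D bioink Itgb1 made up 85.1% ± 1.41 and Itgb5 9.96% ± 1.2. Itgb2 made up 0.229% and 0.439% of the sum in these cultures. The order thus went from Itgb2, Itgb5, Itgb1 in the tumours to Itgb1, Itgb5 in both cultures, with no overlap between neighbours. The summed level itself was 5488 per kb in tumours, 3536 in 2D culture and 3599 in 3D bioink. These shares are descriptions without a test.

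**Figure D3:**
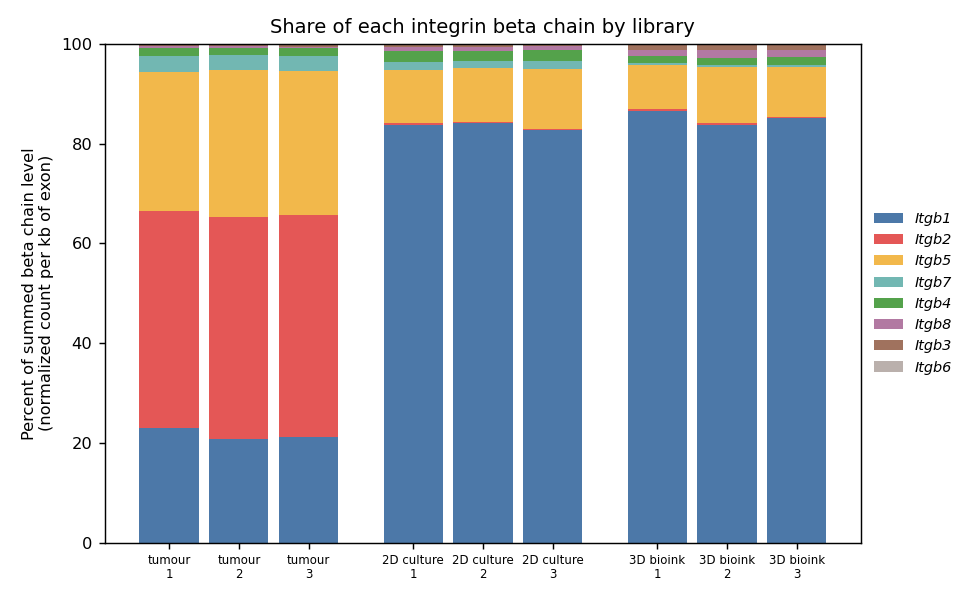
Share of each integrin beta chain in the summed beta chain level per kb of exon (percent, linear axis); each bar is 1 library. Itgb2 made up 43.6% to 44.6% of the bar in tumours and at most 0.51% in the cultures, where Itgb1 made up 82.7% to 86.5%.

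Among the alpha chains the leading level per kb in tumours was that of Itgam, 25.2% ± 0.52 of the summed alpha chain level, then Itgax with 21.5% ± 1.14. Itgav and Itga5 followed with 13.3% ± 0.49 and 13.2% ± 0.47, which overlapped. In 2D culture the leading chains were Itgav with 37.8% ± 0.58, Itga6 with 28.1% ± 0.36 and Itga5 with 16.2% ± 1.04. In 3D bioink Itgav and Itga5 made up 36.1% ± 1.55 and 35% ± 0.12, which overlapped, and Itga6 made up 16.9% ± 0.92. The share of Itga6 depends on the length assigned to the gene: with the longest coding transcript it was 9.98% in tumours (6.06% per kb of all exons), 37.4% in 2D culture, above Itgav with 36.5%, and 24.3% in 3D bioink. With that length Itga5 made up 27.1% in 3D bioink, under Itgav with 37.8%.

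The kindlins, which bind integrin beta tails beside talin, differed from each other. Fermt3, the kindlin of blood cells (chromosome 19, 6998958 to 7019469), was at 1948, 1869 and 1999 in tumours, 0, 8 and 3 in 2D culture, and 0, 15 and 27 in the bioink. It was lower in 3D bioink (log2 -7.99, SE 1.17, adjusted p = 0.0001957) and in 2D culture (log2 -9.20, adjusted p = 9.041e-05), and the size of both values depends on the 1 added before taking logs. Fermt3 was tested only because of its tumour values, so it could only be called lower against them. The cultures overlapped (adjusted p = 0.3966), but without bioink replicate 1 Fermt3 was called higher in 3D bioink (log2 2.68, adjusted p = 0.01543). Fermt2, the kindlin of most other cells, was at 1319, 1385 and 1421, at 1846, 1801 and 1705, and at 1618, 1824 and 1874 in tumours, 2D culture and 3D bioink. It was 1.29-fold higher in 3D bioink than in tumours (log2 0.36, SE 0.07, adjusted p = 0.001143) and 1.3-fold higher in 2D culture (log2 0.38, adjusted p = 0.00115). Per kb of exon, Fermt3 was at 335 and Fermt2 at 265 in tumours, whereas Fermt3 was at 0.634 and 2.42 and Fermt2 at 344 and 341 in 2D culture and 3D bioink. The leukocyte markers given above moved with Fermt3, and their part was not tested.

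Tln1, the talin that leukocytes and most other cells use, was at 16184, 15574 and 15801 in tumours. It was at 9208, 9097 and 9695 in 2D culture and 6251, 7297 and 6753 in the bioink, so that the 3 groups formed a descending order without overlap. Tln1 was 2.34-fold lower in 3D bioink than in tumours (log2 -1.23, SE 0.06, adjusted p = 1.135e-07) and 1.7-fold lower in 2D culture (log2 -0.77, adjusted p = 2.718e-06). The lower call of 3D bioink against 2D culture (log2 -0.47, adjusted p = 9.058e-05) was lost with quantile normalization (-0.11). Tln2 ranged from 111 to 883 within the tumours and passed in no comparison (log2 0.80 for 3D bioink against tumours, adjusted p = 0.283). Without tumour replicate 3 it was called higher in 3D bioink than in tumours (log2 1.57, adjusted p = 0.01442).

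The complex of ILK, PINCH and parvin did not move as a unit. Ilk was lower in 3D bioink, at 921, 905 and 952, than in tumours (2055, 2021 and 2039) and in 2D culture (1837, 1769 and 1766). The fold changes were 2.2 against tumours (log2 -1.14, SE 0.05, adjusted p = 6.829e-08) and 1.93 against 2D culture (log2 -0.95, SE 0.05, adjusted p = 2.826e-07). Its small difference between 2D culture and tumours (log2 -0.19, adjusted p = 0.01059) was lost with equal sums (-0.12). Both partners were higher in culture than in tumours while Ilk was lower. Lims1, which encodes PINCH, was at 474, 567 and 532 in tumours, 1358, 1171 and 1236 in 2D culture, and 1081, 942 and 1081 in the bioink (log2 1.26 and 0.98 against tumours, adjusted p = 2.276e-06 and 1.153e-05). Parva, alpha-parvin, was at 1167, 978 and 1165, at 2451, 2176 and 2347, and at 1487, 1481 and 1554 in the same order (log2 1.08 and 0.45, adjusted p = 2.07e-06 and 0.0006969).

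Against 2D culture, Parva was 1.54-fold lower in 3D bioink (log2 -0.62, SE 0.08, adjusted p = 9.854e-05). Lims1 was also called lower (log2 -0.28, adjusted p = 0.02883), but not under the 3 other scalings (-0.10, -0.08 and -0.20) nor without 2D replicates 1 or 3 (-0.22 and -0.29) or bioink replicate 2 (-0.21). Parvb, beta-parvin, stayed between 346 and 488 in the 9 libraries and passed in no comparison as deposited. With quantile normalization, equal sums and median ratios it was called higher in 3D bioink than in tumours (0.48, 0.54 and 0.37).

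Focal adhesion kinase was highest in 2D culture, and paxillin was higher in both cultures than in tumours. Ptk2, which encodes the kinase, was at 1081, 1145 and 1053 in tumours, 1715, 1720 and 1745 in 2D culture, and 1152, 1211 and 1233 in the bioink. It was 1.58-fold higher in 2D culture than in tumours (log2 0.66, SE 0.06, adjusted p = 6.361e-06) and 1.44-fold lower in 3D bioink than in 2D culture (log2 -0.53, adjusted p = 3.234e-05). The difference between 3D bioink and tumours did not pass (log2 0.13, 95% interval 0.004 to 0.26, adjusted p = 0.06633), but it did, as higher in 3D bioink, under the 3 other scalings (0.31, 0.40 and 0.23) and without tumour replicate 2 or bioink replicate 1 (0.17 and 0.16). Pxn, paxillin, was at 2805, 2731 and 2510, at 3447, 3162 and 3724, and at 3559, 3235 and 3281, 1.25-fold higher in 3D bioink than in tumours (log2 0.33, SE 0.07, adjusted p = 0.00311) and 1.28-fold higher in 2D culture (log2 0.36, adjusted p = 0.002081). Bcar1, the scaffold p130Cas, overlapped between the groups and passed in no comparison.

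Both alpha-actinins, which bundle actin at adhesions, were highest in 2D culture. Actn1 was at 1674, 1840 and 1668 in tumours, 4374, 4428 and 4407 in 2D culture, and 1389, 1762 and 1475 in the bioink. The dish libraries stood apart, 2.55-fold above tumours (log2 1.35, SE 0.09, adjusted p = 6.003e-07), and 3D bioink was 2.86-fold under them (log2 -1.52, SE 0.09, adjusted p = 3.607e-07) and overlapped the tumours. Actn4, the alpha-actinin of moving cells, was at 8396, 8125 and 9591, at 13390, 14816 and 14282, and at 6815, 6646 and 5367 in tumours, 2D culture and 3D bioink. It was 1.63-fold higher in 2D culture than in tumours (log2 0.71, SE 0.10, adjusted p = 0.0001603) and 2.26-fold lower in 3D bioink than in 2D culture (log2 -1.18, SE 0.10, adjusted p = 4.484e-06). Its lower call in 3D bioink against tumours (log2 -0.48, adjusted p = 0.001711) was lost with quantile normalization (-0.10) and equal sums (-0.21).

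Vcl, vinculin, which joins talin to actin under tension, was higher in both cultures. Its values were 1397, 1471 and 1311 in tumours, 3370, 3352 and 3388 in 2D culture, and 2949, 3133 and 3140 in the bioink, 2.21-fold above tumours in 3D bioink (log2 1.14, SE 0.06, adjusted p = 1.234e-07) and 2.42-fold in 2D culture (log2 1.28, adjusted p = 4.935e-08). Between the cultures vinculin did not overlap, but it was not called different as deposited (log2 -0.13, 95% interval -0.26 to -0.008, adjusted p = 0.06382). It was called lower in 3D bioink with array weights (-0.105, adjusted p = 0.02565) and with only these 2 groups fitted (-0.13, adjusted p = 0.03505). The sign turned with quantile normalization (0.11) and equal sums (0.064). Whether its difference was smaller than those of the alpha-actinins was not tested. Tns3, a tensin that joins integrin tails to actin, fell from 4355, 4546 and 4303 in tumours to 3501, 3596 and 3546 in 2D culture and 2919, 2883 and 2971 in the bioink. Its log2 fold changes against tumours were -0.59 in 3D bioink (SE 0.04, adjusted p = 1.83e-06) and -0.31 in 2D culture (adjusted p = 0.0001859), and the lower call of 3D bioink against 2D culture (-0.28) was lost with quantile normalization (-0.05) and equal sums (-0.08).

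Zyx, zyxin, varied within each group, with 1330, 748 and 1232 in tumours, 755, 491 and 821 in 2D culture, and 701, 437 and 729 in the bioink. Replicate 2 was the lowest of its group in all 3 groups. The lower call in 3D bioink against tumours (log2 -0.82, SE 0.28, adjusted p = 0.0264) was lost without tumour replicates 1 or 3 (-0.66 and -0.72) or bioink replicate 2 (-0.58) and under quantile normalization and equal sums (-0.66 and -0.56). In 2D culture against tumours it did not pass (log2 -0.67, adjusted p = 0.06747) but did with the replicate number as a block (adjusted p = 0.0001816) and without tumour replicate 2 (-0.93).

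**Figure D4:**
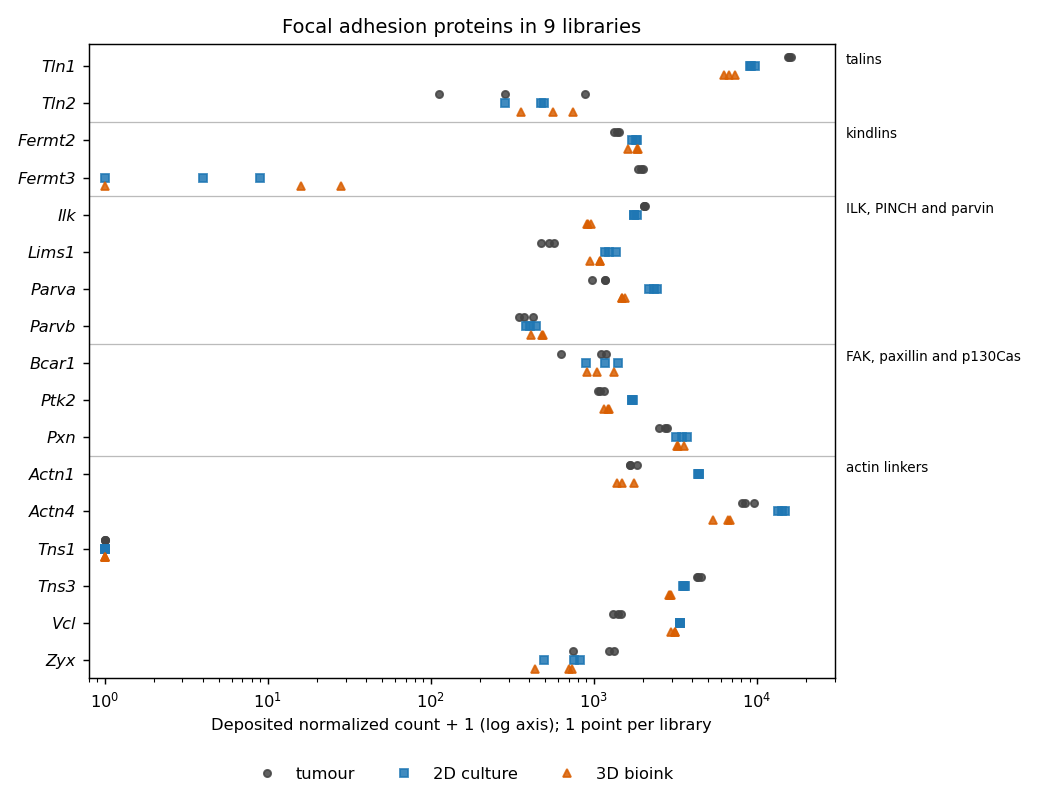
Normalized count plus 1 (log axis) of the 17 focal adhesion proteins in each library, grouped by role; each point is 1 library. Fermt3 was at 1869 or more in tumours and at 27 or less in the cultures, Actn1 and Actn4 were highest in 2D culture, and Tns1 was listed at 0 in all 9 libraries.

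Integrin ligands, a list of 41 names of which 39 were in the table and 35 tested, were more often higher than lower in the gel against the dish. In 3D bioink against 2D culture 21 were higher and 4 lower, beside 27% and 32.2% of all genes tested, with a median log2 fold change of 0.49 beside -0.02 over all genes. All 7 tested fibroblast markers, of which Col1a1 and Col1a2 are also in the ligand list, were higher in 3D bioink than in 2D culture, and the part of those cells was not tested. Against tumours 17 ligands were higher and 14 lower in 3D bioink, beside 27.1% and 37.3% of all genes tested. In 2D culture 15 were higher and 17 lower, beside 27.3% and 27%. The ligand medians were 0.40 and -0.42. Between the cultures the split was 22 or 23 higher and 4 or 5 lower under the 3 other scalings, and 20 and 4 without bioink replicate 1. The largest rise between the cultures was in Spp1, osteopontin, a secreted RGD ligand of the Itgav receptors, at 2127, 2220 and 2171 in 2D culture and 23703, 25751 and 26429 in the bioink (log2 3.54, SE 0.05, adjusted p = 1.279e-10). Its tumour values were 1098, 1074 and 1109, lower still. Thbs2, a secreted thrombospondin, rose from 3295 ± 152 to 16431 ± 602 (log2 2.32, adjusted p = 3.984e-09), and Vcam1, the counter-receptor of Itga4, from 33 ± 10.4 to 126 ± 17.0 (log2 1.94, adjusted p = 0.0001288), with tumours at 323 ± 29.0. The falls were in Npnt, nephronectin, the ligand of Itga8 (log2 -1.50), the laminin chain Lamb1 (-0.63) and Thbs1 (-0.58).

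Against tumours, ligands were called in both directions. Col1a2, a chain of collagen I, was at 81 ± 28.6 in tumours, 3413 ± 199 in 2D culture and 5494 ± 258 in 3D bioink (log2 6.12 for 3D bioink, adjusted p = 6.428e-09), and Lama2, a laminin chain, at 12 ± 2, 455 ± 23.9 and 450 ± 94.2. Col4a1 was also called higher, on tumour values of 300, 442 and 0. Tgfbi, a secreted RGD protein that macrophages make, was at 15551 ± 385 in tumours, 294 ± 25.9 in 2D culture and 680 ± 174 in 3D bioink. Icam2, a counter-receptor of LFA-1, was at 144 ± 13.9, 3.33 ± 1.53 and 38.7 ± 10.0, and F11r and Cdh1 were lower in both cultures too. So were other matrix ligands, among them Col3a1, a chain of collagen III, Tnc, tenascin C, and Postn, periostin, while Jam2, a junctional adhesion molecule, was higher in 3D bioink.

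A few ligands were looked up after the receptor values had been seen. Fn1, fibronectin, was at 5227, 5134 and 5347 in tumours, 893, 1284 and 2024 in 2D culture, and 5061, 4473 and 3902 in the bioink. It was lower in 2D culture than in tumours (log2 -1.98, SE 0.24, adjusted p = 5.836e-05), higher in 3D bioink than in 2D culture (log2 1.75, adjusted p = 0.0001365), and did not pass between 3D bioink and tumours (log2 -0.23, adjusted p = 0.4071). Its order of groups differed from that of its receptor chain Itga5, whose bioink values lay above the tumours. The 3 fibrinogen chain genes Fga, Fgb and Fgg were listed at 2 or less in the 9 libraries.

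Other proteins of adhesions, a list of 58 of which 55 were tested, were spread in both directions. Against tumours 18 were higher and 24 lower in 3D bioink, beside 27.1% and 37.3% of all genes tested. In 2D culture 18 were higher and 22 lower, beside 27.3% and 27%. In 3D bioink against 2D culture 14 were higher and 18 lower, shares near the 27% and 32.2% of all genes. The medians of the list were -0.18, -0.14 and -0.13. The balance depended on the scaling: with equal sums 22 were higher and 18 lower in 3D bioink against tumours, and 20 and 14 against 2D culture. The largest falls against tumours included Parvg, the parvin of leukocytes, at 505 ± 47.3 in tumours, 20.7 ± 3.79 in 2D culture and 45 ± 8.72 in 3D bioink. They also included Lyn, a Src family kinase of myeloid and B cells, at 1974 ± 113, 210 ± 20.8 and 398 ± 3.51, and Apbb1ip, the talin recruiter RIAM, at 757 ± 38.4, 84.3 ± 17.6 and 199 ± 7.21. The largest rises included Cav1, caveolin, at 90 ± 17.7, 769 ± 59.0 and 948 ± 98.0, and Flnc, a filamin, at 353 ± 41.9, 2462 ± 100.3 and 2170 ± 115. Between the cultures Sorbs2, an adaptor that binds vinculin, fell by 2.85 on the log2 scale in 3D bioink (1961 ± 57.6 in 2D culture, 276 ± 62.9 in 3D bioink, adjusted p = 2.171e-07), and Trip6, a relative of zyxin, went from 1350 ± 102 to 647 ± 19.9 (adjusted p = 1.053e-06).

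**Figure D5:**
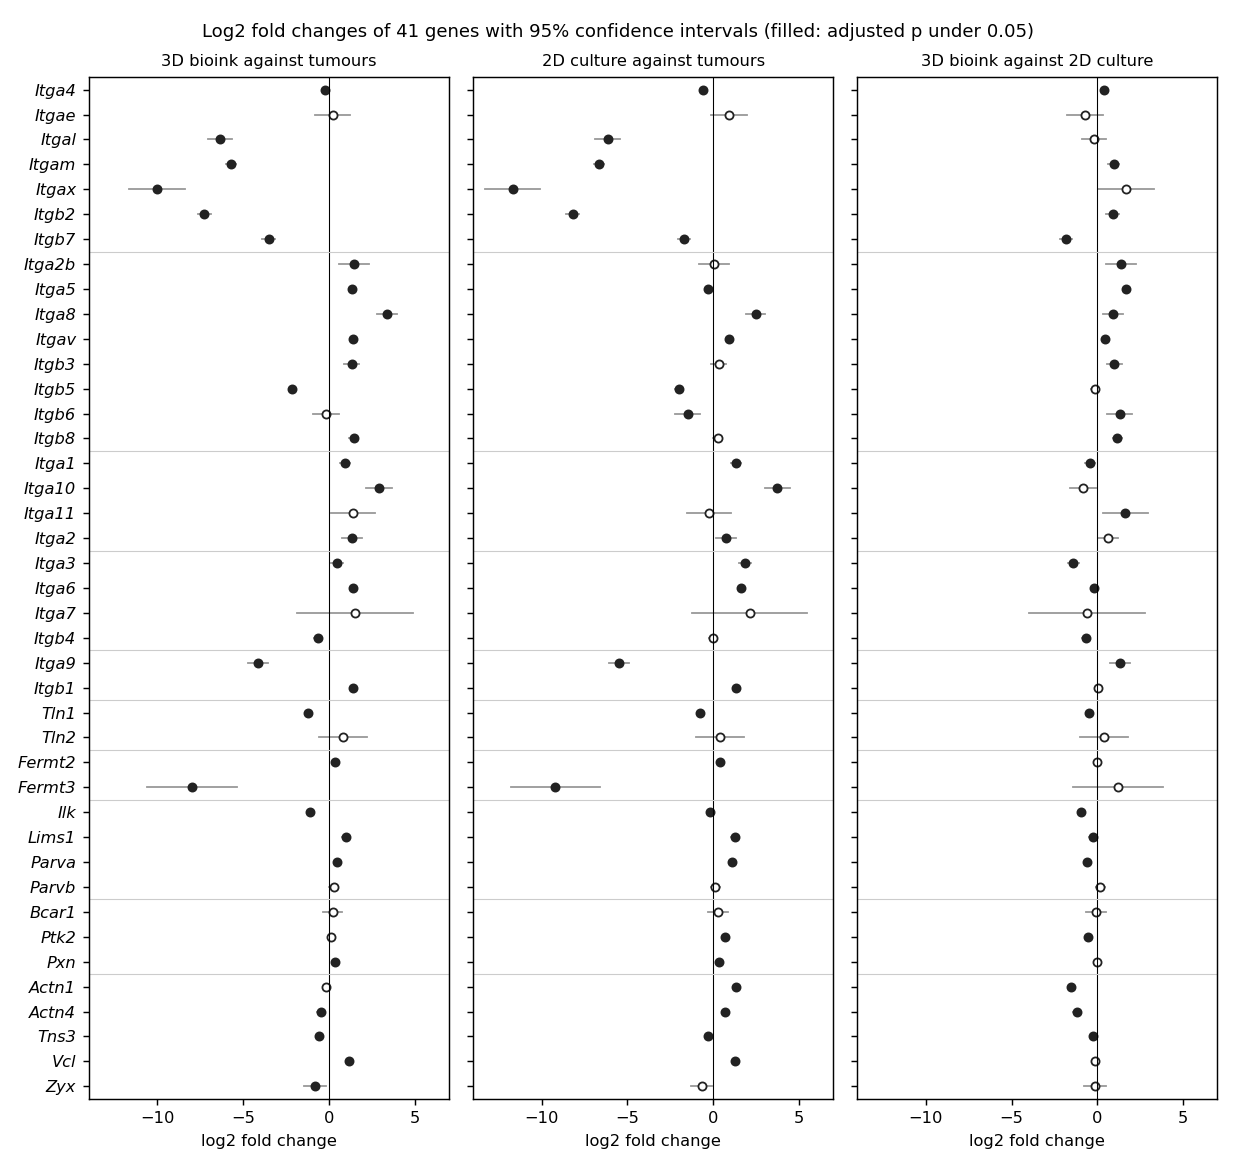
Log2 fold change with 95% confidence interval of the 41 tested genes in the 3 comparisons (linear axis, filled where the adjusted p was under 0.05, lines separating the groups of genes). Itgal, Itgam, Itgax, Itgb2 and Fermt3 lay at -5.72 or lower in both comparisons with tumours, and 7 of the 8 RGD-binding chains were to the right of 0 and filled in 3D bioink against 2D culture.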

How the data were processed

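Bulk RNA libraries of 9 samples, 3 per group, were deposited by the authors as 1 table. Each value is a score, the normalized count of a gene symbol in a library, which the authors rounded to a whole number before it was deposited. The mouse build mm10 and the tools DESeq2 1.24.0, DESeq, RSEM and kallisto are named in the submitters' processing notes, and their role and order are not given in the sources used here. Libraries were made with a directional kit, per the labels' protocols, but whether reads were counted by strand is not given, so overlapping genes are uncertain. Depth is unknown, and no counting interval is given.

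Groups were taken from the sample labels. Values were analysed as log2(value + 1) in a single limma fit of all 9 libraries (limma 3.58.1, R 4.3.3, empirical Bayes with a trend), with Benjamini-Hochberg adjustment over the 13773 genes averaging 10 or more and a threshold of 0.05. The fit was tested on simulated data. Gene positions and exon lengths came from GENCODE M21 on GRCm38, and upstream sequences from RefSeq on GRCm38.p6. The genes and lists were chosen with earlier results of these data known. Values per library are given for every beta chain and for genes called in at least 1 comparison whose higher group averaged 100 or more, and for some others. From the ligand and adhesion lists the 3 largest rises and falls per comparison could be named. Alternatives changed the added constant, the filter, the scaling, the trend, the weights, the block, the groups fitted, the gene length and the libraries.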

Additional observations from a re-analysis of the deposited data

Results flagged for a closer look

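The 2 cultures differed from the tumours in opposite directions for 2 of the 41 genes tested, each called on both sides. How many of all 13773 genes did so was not counted, so the number is no result about this set. Itga5 was higher than the tumours in 3D bioink and lower in 2D culture, with a difference of 1.64 on the log2 scale between the cultures (limma, adjusted p = 3.621e-08). Actn4 was lower in 3D bioink and higher in 2D culture, with a difference of -1.18 (adjusted p = 4.484e-06). Its lower call against tumours was lost with quantile normalization and with equal sums, whereas Itga5 kept each of its 3 calls under every alternative tried.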

How the results depend on the processing

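No count of genes called over the 41 tested moved by over 1.5 times under the alternatives run. Counts within single roles did. With quantile normalization RGD-binding chains higher in 2D culture against tumours went from 2 to 4, leukocyte chains lower in 3D bioink against 2D culture from 1 to 3, and actin linkers lower in 3D bioink against tumours from 3 to 1, the last also with equal sums. The other role counts that moved that far went between 0, 1 and 2 genes. With the replicate number as a block the counts higher and lower were 17 and 15 for 3D bioink against tumours, 15 and 15 for 2D culture against tumours, and 11 and 13 for 3D bioink against 2D culture. Correlations of deviations between groups were -0.033 to 0.08 for libraries with the same number and -0.063 to 0.052 for those with other numbers. Between tumours and 3D bioink the same-number values (0.034, 0.048 and 0.08) all lay above the others (-0.063 to 0.009). All were small and the labels do not link the numbers, so the numbers are not taken as pairs. The block changed 3 single calls, of Itga2, Itga11 and Zyx. With quantile normalization the sign turned, in 3D bioink against tumours, for Itgae (-0.011) and Actn1 (0.002), in 2D culture against tumours for Itga11 (0.57) and Itgb4 (0.03), and in 3D bioink against 2D culture for Itgb5 (0.017), Itga6 (0.08), Fermt2 (0.19), Bcar1 (0.10), Pxn (0.22) and Vcl (0.11). With equal sums it turned for Itga4 (0.021), Itgb6 (0.067) and Actn1 (0.093) in the first comparison, Itgb4 (0.046) in the second, and Itgb5 (0.044), Fermt2 (0.19), Bcar1 (0.13), Pxn (0.16), Vcl (0.064) and Zyx (0.049) in the third. With median ratios it turned in the third for Fermt2 (0.071), Bcar1 (0.014) and Pxn (0.048), and with array weights for Itgae (-0.10) in the first and Itgal (0.23), Fermt2 (0.051) and Zyx (0.082) in the third. Of these, Itga4 and Itga6 were called as deposited, and Fermt2 (adjusted p = 0.03749 and 0.03658) and Pxn (0.0313) were called higher after turning. The cause was not tested.

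Leaving out 1 library in turn, values that changed sign ranged, in 3D bioink against tumours, from -0.074 to 0.58 for Itgae, -0.70 to 2.77 for Itga7 and -0.078 to 0.38 for Bcar1. In 2D culture against tumours they ranged from -0.42 to 0.32 for Itga2b, -0.64 to 0.25 for Itga11, -0.089 to 3.38 for Itga7, -0.08 to 0.051 for Itgb4, -0.31 to 1.18 for Tln2 and -0.01 to 0.45 for Bcar1. In 3D bioink against 2D culture they ranged from -0.49 to 0.20 for Itgal, -0.054 to 0.052 for Fermt2, -0.24 to 0.081 for Bcar1, -0.095 to 0.023 for Pxn and -0.38 to 0.088 for Zyx. None of these was called with all libraries. Chain shares with the longest coding transcript as length, and counts of the roles and of the ligand and adhesion lists under other scalings and without bioink replicate 1, were added after seeing the data. Depth is unknown, so values near 0 cannot be told from a failed count.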
